A study of Mus musculus with 10 samples.

Results

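The S100 genes encode small calcium-binding proteins, and 7 of them were followed across 10 RNA-seq libraries of sorted mouse macrophages: S100a4, S100a6, S100a8, S100a9, S100a10, S100a11 and S100a13. They were picked by symbol from the 12535 genes of the deposited table, which held 9 S100 family genes in all, S100a1 and S100a16 being the other two. The cKO-labelled tumour-associated macrophages (TAM, n = 3) came from C57/BL6 Ahr fl/fl Lys M mice, in which Cre recombinase made from the Lyz2 locus is meant to remove the aryl hydrocarbon receptor gene from myeloid cells. Control TAM (n = 3) came from C57/BL6 Ahr fl/fl mice without that Cre, and resident macrophages (n = 4) from the healthy pancreas of C57/BL6 WT mice. The titles of the control TAM libraries also call them WT. Tumours of both TAM groups grew in the pancreas for 14 days from a single line, the KPC organoid line MT4, a model of pancreatic ductal adenocarcinoma. All cells were sorted as CD45+CD11b+F4/80+, and RNA was extracted with either of a pair of kits, with no label saying which library had which. Lyz2 is active in neutrophils and monocytes as well as in macrophages, so Cre is not confined to macrophages in this model. The labels give no age or sex.

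S100 proteins work mostly as dimers whose shape changes when calcium binds, which opens a surface for partner proteins. Inside the cell they act on the cytoskeleton, on annexins and on enzymes, and some are released and act as alarm signals on receptors such as TLR4 and RAGE. In tissues under inflammation the S100A8 and S100A9 pair, called calprotectin, is the member best known from neutrophils and newly arrived monocytes, where it binds zinc and manganese and so starves microbes of metal. Expression is given as FPKM, which divides a gene's fragments by its length and by the size of its library. Levels of different genes can be set side by side only as far as the lengths used, whose setting is not given, were right.

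All 7 genes lie on mouse chromosome 3. In the GENCODE M21 annotation of GRCm38, S100a13 (90514435 to 90524581, plus strand), S100a4 (90603771 to 90606045, plus), S100a6 (90612882 to 90624181, plus), S100a8 (90668978 to 90670035, plus) and S100a9 (90692632 to 90695721, minus) stand within 181287 bp, while S100a11 (93520488 to 93526287, plus) and S100a10 (93555080 to 93564643, plus) stand 2824766 bp further on. All are protein-coding, and their longest transcripts run from 498 to 783 bases. A second annotated gene, Gm42674, overlaps S100a4 on the same strand by 2115 bp of gene span, and reads there could have been assigned to either, so the level of S100a4 is uncertain to that extent. S100a8 and S100a9 are transcribed towards each other across 22596 bp. Their upstream bases are printed here because these 2 genes differed most between the groups. Each line gives the 250 bases before the RefSeq start in GRCm38.p6 (the GENCODE start of S100a8 is further upstream, within the printed stretch), for S100a8 chr3:90668821-90669070 on the plus strand and for S100a9 chr3:90695722-90695971 on the minus strand. Capitals mark TTNCNNAA, a loose form of the site of C/EBP factors, which drive myeloid genes, and TATAAA, the TATA box, on either strand.
S100a8: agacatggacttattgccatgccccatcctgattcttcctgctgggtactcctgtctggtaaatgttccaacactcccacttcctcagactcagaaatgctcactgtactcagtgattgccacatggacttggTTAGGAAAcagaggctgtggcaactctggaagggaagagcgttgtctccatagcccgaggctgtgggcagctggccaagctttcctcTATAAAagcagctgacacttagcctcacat
S100a9: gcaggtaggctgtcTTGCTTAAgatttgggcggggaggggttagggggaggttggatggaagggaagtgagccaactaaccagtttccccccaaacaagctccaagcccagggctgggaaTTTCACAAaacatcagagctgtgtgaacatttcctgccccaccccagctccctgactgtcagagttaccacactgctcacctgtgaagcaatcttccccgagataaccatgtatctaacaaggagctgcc

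The C/EBP letters began 117 bases before the start in S100a8 and 236 and 130 bases before it in S100a9. They were in 2 of the 6 members with a promoter in the RefSeq table (all but S100a10). Of all 32851 mouse promoter windows 40.7% had them. Each window searched, for members and all promoters alike, ran past the start, beyond the 250 bases printed. The TATA letters began 30 bases before the S100a8 start and 31 before that of S100a4, and at base 1 after the annotated S100a9 start, which the printed stretch does not reach. TATA was in 13.6% of all windows. GCGTG, the core that the aryl hydrocarbon receptor binds with its partner, was in 1 of the 6, S100a13 (190 bases before the start), and in 32.4% of all windows. TGANTCA, the AP-1 site, was in S100a11 only among the 6 (136 and 38 bases before the start), and in 7.8% of all windows. Both strands were searched, and a match is a run of letters and not a measured binding site.

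The libraries held 10125857 to 25620077 reads as recovered from the FPKM steps, deepest in cKO-labelled TAM replicate 3. The values of the 7 genes came out within 0.104 of a whole number of reads. Genes of the sort markers were present in every library. Ptprc (CD45) averaged 84.2 FPKM in cKO-labelled TAM, 103 in control TAM and 69.0 in resident macrophages, Itgam (CD11b) 59.7, 75.9 and 31.4 FPKM, and Adgre1 (F4/80) 497, 589.8 and 706 FPKM. Ahr itself stood at 10.2, 11.2 and 9.65 FPKM in the cKO-labelled libraries against 7.11, 6.91 and 7.51 FPKM in control TAM, so that the gene as counted was higher, not lower, in the group labelled as deleted, and a value over all exons cannot check a deletion of part of them. The group is therefore named by its label. Lyz2, the locus that carries Cre, averaged 11460 FPKM in cKO-labelled TAM, 19904 in control TAM and 28140 in resident macrophages. Its log2 change between the TAM groups was -0.80 (adjusted p = 9.39e-13 by limma), without overlap. The reason for this difference was not tested. Differences were tested with limma on log2(FPKM + 1) over the 11127 genes that reached 1 FPKM in at least 3 libraries, with Benjamini-Hochberg adjusted p under 0.05 as the threshold. The design text counts as many mice as libraries in each group, but no label ties a library to a mouse. SEs and p-values therefore describe spread between libraries, and whether that equals the spread between mice was not tested. All 7 members entered the fit, S100a8 and S100a9 only through the TAM libraries.

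Set against control TAM, cKO-labelled TAM had 1.94 times the S100a8 and 2.25 times the S100a9 mRNA and less S100a10 and S100a4, while S100a6, S100a11 and S100a13 did not pass the threshold. Thus 2 of 7 members rose and 2 fell, where 39.6% of all genes tested passed (20.5% of all genes tested higher and 19.1% lower). Control TAM, set against resident macrophages, had more of every member except S100a13: 6 of 7 rose and 0 fell, where 77.1% of all genes tested passed (39.0% higher and 38.1% lower). The groups of the first comparison did not overlap for 4 of 7 members (51.4% of all genes), and those of the second for 6 of 7 (73.9% of all genes). A rise of at least 2-fold on the log2(FPKM + 1) scale was seen in S100a9 in the first (1.01% of all genes), and in S100a4, S100a6, S100a8, S100a9 and S100a11 in the second (9.98%). The median log2 change of the members was 0.10 in the first comparison and 1.49 in the second, against 0.01 and 0.00 over all genes. With each library brought to the same FPKM sum, the median over all genes was 0.18 higher in the second comparison. Of the genes that passed, 66.2% were then higher, against 50.6% before, and in the first comparison 32.8% against 51.8%. The 2 comparisons share the control TAM libraries.

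**Figure D1:**
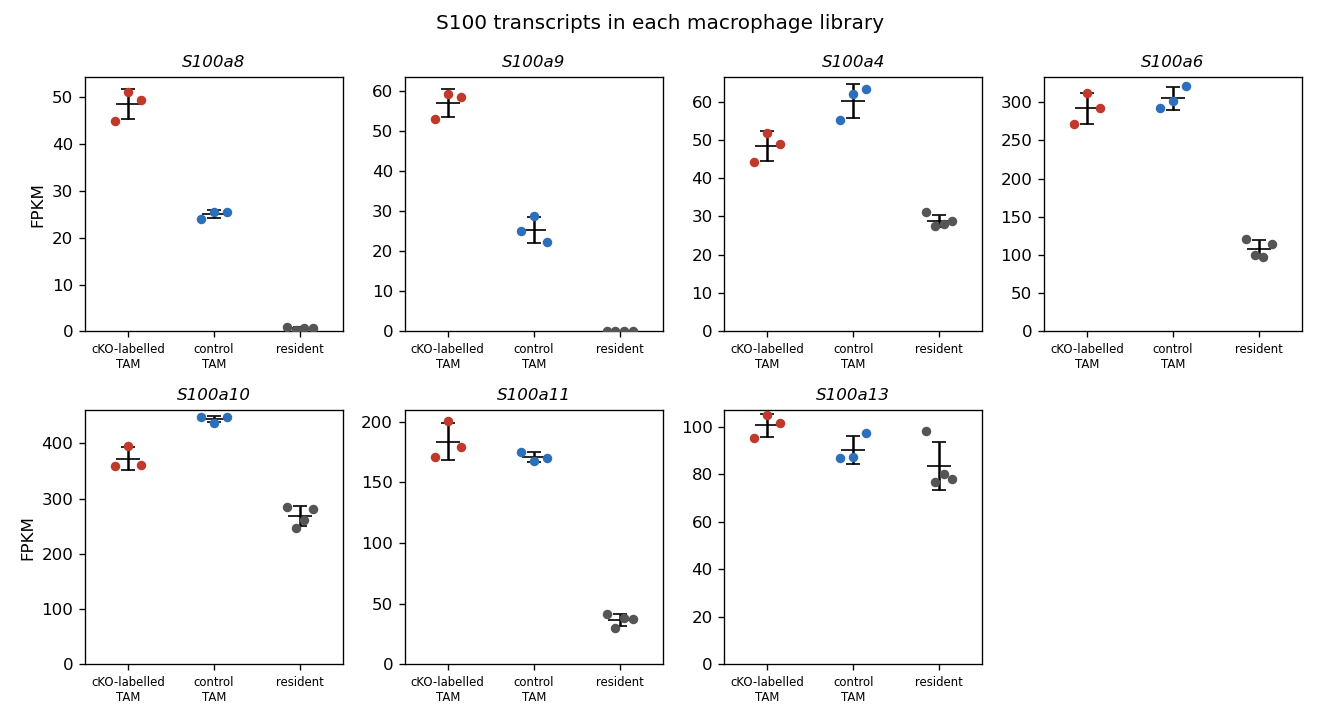
FPKM of each S100 member in each library, with cKO-labelled TAM, control TAM and resident macrophages from left to right and each axis starting at 0. Points are libraries, and the bar and whiskers are mean ± SD (n = 3, 3 and 4). S100a8 and S100a9 are near 0 in resident libraries and highest in the cKO-labelled ones, while S100a10 and S100a4 are highest in control TAM.

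S100a9, the larger calprotectin subunit, had 53.1, 59.4 and 58.7 FPKM in cKO-labelled TAM, against 25.1, 28.7 and 22.3 FPKM in control TAM. Each cKO-labelled library exceeded each control library. The mean was 57.0 ± 3.44 FPKM in cKO-labelled TAM and 25.4 ± 3.21 FPKM in control TAM (SD, n = 3 each). The change on the log2 scale was 1.14, with an SE of 0.09 and adjusted p = 7.08e-08 by limma, which placed S100a9 at rank 83 among the 11127 genes by rise. In resident macrophages S100a9 was listed at 0 in 3 libraries and at 0.128 FPKM, a single read, in the other. A count of 0 allows up to 3 reads, which is 0.533 FPKM in the shallowest of these libraries. Control TAM held 493 reads of S100a9 and resident macrophages 1 read, a ratio per depth of 673 whose exact 95% interval, for counting error only, runs from 120.2 to 26630.

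S100a8, the smaller subunit, had 45.1, 51.2 and 49.5 FPKM in cKO-labelled TAM, against 24.0, 25.6 and 25.5 FPKM in control TAM. Again the groups stood apart. The mean was 48.6 ± 3.18 FPKM in cKO-labelled TAM and 25.05 ± 0.887 FPKM in control TAM, a log2 change of 0.93 ± 0.09 (adjusted p = 2.06e-06). Resident macrophages had 0.865, 0.371, 0.664 and 0.801 FPKM, from 2 to 6 reads a library. The log2 change of control TAM over resident macrophages was 3.97 ± 0.09 for S100a8 and 4.67 ± 0.08 for S100a9 on the log2(FPKM + 1) scale, which understates changes of genes this low; with 0.1 in place of 1 they were 5.07 and 7.69. The 2 subunits form their complex in equal numbers, and the ratio of S100a8 to S100a9 FPKM was 0.843 to 0.863 in cKO-labelled TAM and 0.890 to 1.14 in control TAM.

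Neutrophil markers were measured beside the pair. Of the 17 genes of that list other than the S100 pair, 15 were in the table and 14 were tested. Ly6g and Elane were absent, and Mpo, untested, had 0.310 FPKM in cKO-labelled TAM and 0.702 in control TAM. In cKO-labelled TAM against control TAM 8 rose, 1 fell and 5 did not pass, with a median log2 change of 0.24. Beside this and the marker counts below, 39.6% of all genes tested passed with the label (20.5% higher and 19.1% lower). In control TAM against resident macrophages 12 rose and 1 fell, where 77.1% of all genes tested passed. The list summed to 2037 to 2211 FPKM in cKO-labelled TAM, 1655 to 1694 in control TAM and 382 to 393 in resident macrophages. Most of that sum was Retnlg, a resistin-like protein, in TAM (means of 1420 and 1166 FPKM in cKO-labelled and control TAM), and Mmp9, a gelatin-degrading protease, in resident macrophages (329 FPKM). Mmp9 had the highest rise of the list on the log2(FPKM + 1) scale, at 123 ± 4.28 FPKM in cKO-labelled TAM and 41.5 ± 0.324 in control TAM (log2 change 1.55), and Ltf, which encodes the granule protein lactoferrin, had a log2 change of 1.37. Cxcr2, the chemokine receptor of mature neutrophils, stood at 5.46 ± 0.285 FPKM in cKO-labelled TAM and 1.59 ± 0.148 in control TAM, a ratio of means of 3.44 where that of Mmp9 was 2.97, and at 0 in 3 of 4 resident libraries. The granule gene Ngp fell, with 4.38 FPKM in cKO-labelled TAM and 6.33 in control TAM, and Camp, which encodes another granule protein, did not pass (2.25 and 1.90 FPKM, adjusted p = 0.282). Monocyte markers split with the label, with 4 of 12 higher, 4 lower and 4 not past the threshold, while in the tumour 10 rose and 1 fell. Acinar markers, from the digestive cells of the pancreas, summed to 320.7 to 332 FPKM in cKO-labelled TAM, 76.8 to 79.5 in control TAM and 27138 to 28739.7 in resident macrophages, with 11 of 11 tested higher with the label and 11 of 11 lower in the tumour. Amy2a5 was at 0 in 2 of 3 cKO-labelled and 3 of 3 control libraries. B and plasma cell markers summed to 238 to 242, 85.5 to 94.5 and 888 to 906 FPKM in the same order (3 of 4 higher with the label, 4 of 4 lower in the tumour), and dendritic cell markers to 45.9 to 47.0, 19.6 to 20.8 and 117 to 131 FPKM (2 of 3 higher with the label, 2 of 3 lower in the tumour). T and NK markers summed to 20.3 to 22.1, 15.7 to 17.3 and 27.0 to 28.9 FPKM. Of the 7 tested, 4 rose and 1 fell with the label, and 6 rose and 1 fell in the tumour: Cd2, at 1.76 FPKM in control TAM and 21.7 in resident macrophages, carried the resident sum, while Cd3g had 1.85 and 0.453 FPKM. Of 11 macrophage markers 4 rose and 5 fell with the label. The part of other cells in the S100a8 and S100a9 difference was not tested, and in bulk RNA more cells of a type and more RNA per cell cannot be told apart.

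**Figure D2:**
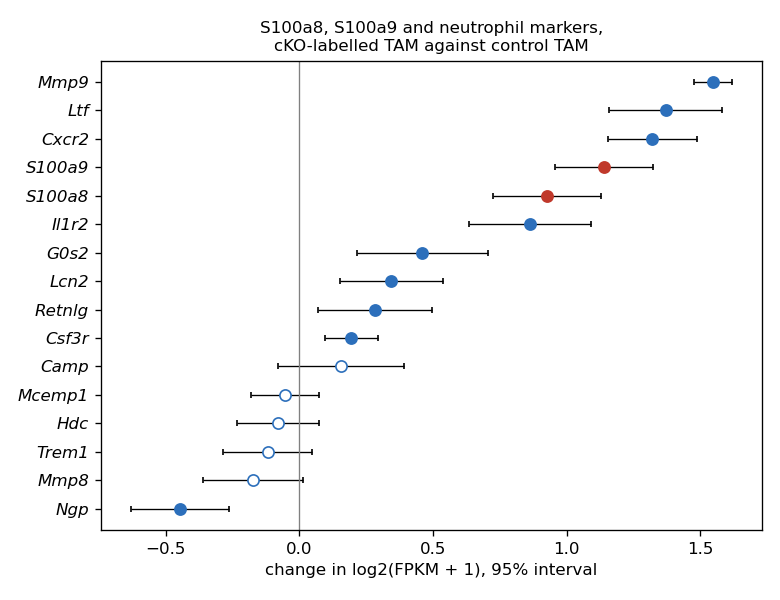
Log2 change of S100a8, S100a9 (red) and the 14 tested neutrophil markers (blue) in cKO-labelled TAM against control TAM, with 95% intervals; open circles did not pass the threshold. The S100 pair, at 0.93 and 1.14, lies among the larger rises, above the list's median of 0.24, with Mmp9 at the top and Ngp at the bottom.

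S100a10, the most abundant member in every library, differs from the others in that it does not bind calcium. It joins annexin A2 in a complex that holds plasminogen and its activators at the cell surface. It had 359.6, 396 and 361 FPKM in cKO-labelled TAM, against 447, 438 and 448 FPKM in control TAM. Resident macrophages had 285, 247, 261 and 281 FPKM. Every cKO-labelled library thus lay between the other groups, with no overlap. The fall in cKO-labelled TAM came to a log2 change of -0.26 ± 0.05 (372 ± 20.5 against 444 ± 5.67 FPKM, adjusted p = 0.000743), and control TAM exceeded resident macrophages by 0.73 ± 0.05 (adjusted p = 5.17e-10).

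Anxa2, the partner of S100a10, averaged 528 ± 9.33 FPKM in cKO-labelled TAM and 793 ± 17.2 FPKM in control TAM (log2 change -0.59, adjusted p = 1.49e-09), and 215 ± 6.65 FPKM in resident macrophages (log2 change of control TAM over these 1.88). The ratio of S100a10 to Anxa2 FPKM was 0.676 to 0.741 in cKO-labelled TAM, 0.539 to 0.572 in control TAM and 1.17 to 1.33 in resident macrophages, with no overlap. Over 4 pairs of partner genes and 2 comparisons, 8 log2 ratios were compared by two-sided exact permutation tests. Each gave the smallest p its design allows, 0.1 for 3 against 3 libraries and 0.0571 for 3 against 4, and the Benjamini-Hochberg adjusted p was 0.1 for all 8. No ratio could therefore pass 0.05. The log2 ratio of S100a10 to Anxa2 was higher by 0.33 in cKO-labelled than in control TAM, and lower by 1.15 in control TAM than in resident macrophages.

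S100a11, a partner of annexin A1, had 171, 201 and 179 FPKM in cKO-labelled TAM, against 175, 168 and 169.7 FPKM in control TAM. Those groups overlapped, and the log2 change was 0.10, with a 95% interval from -0.09 to 0.29 (adjusted p = 0.384). It was 0.15 without cKO-labelled replicate 1 and 0.03 without cKO-labelled replicate 2. Resident macrophages had 41.4, 29.6, 38.0 and 37.4 FPKM, far below either TAM group. The log2 change of control TAM over resident macrophages was 2.20 ± 0.08 (171 ± 3.84 against 36.6 ± 4.99 FPKM, adjusted p = 5.40e-13). Anxa1, whose protein restrains inflammation, averaged 283 ± 6.20 FPKM in cKO-labelled TAM, 362 ± 8.93 in control TAM and 166 ± 5.39 in resident macrophages, and fell in the first comparison (log2 change -0.35, adjusted p = 1.39e-06). The log2 ratio of S100a11 to Anxa1 differed by 0.45 in the first comparison and by 1.08 in the second.

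**Figure D3:**
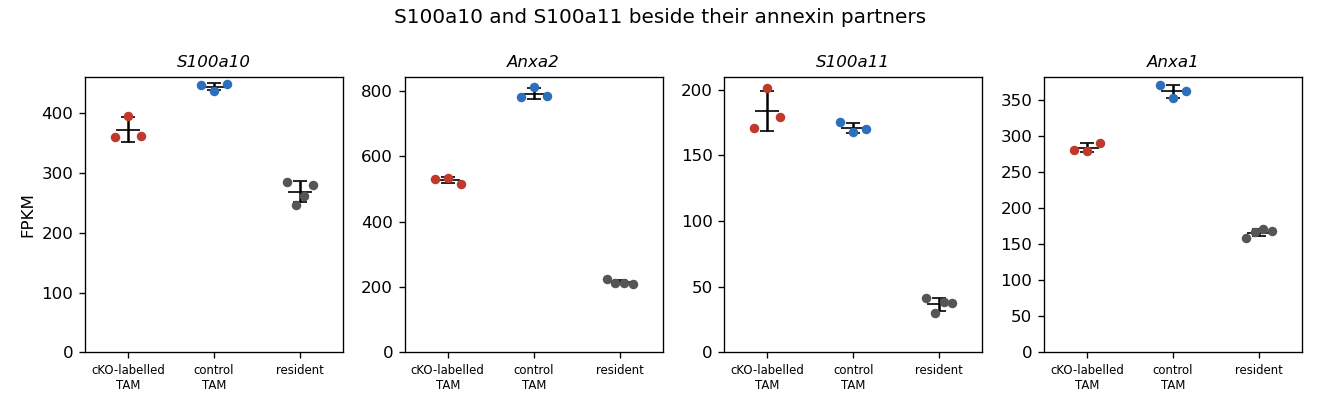
FPKM of S100a10 and Anxa2, and of S100a11 and Anxa1, in each library, with cKO-labelled TAM, control TAM and resident macrophages from left to right; points are libraries and whiskers mean ± SD. Anxa2 has means of 528, 793 and 215 FPKM, a wider range than the 372, 444 and 268 FPKM of S100a10. S100a11 differs little between the TAM groups, where Anxa1 has 283 and 362 FPKM.

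The annexins are membrane-binding proteins that several S100 proteins dock on. Of 12 annexin genes 11 were tested. In cKO-labelled TAM against control TAM 2 rose and 7 fell (median log2 change -0.19). Of all genes tested 39.6% passed there (20.5% higher and 19.1% lower). In control TAM against resident macrophages 8 rose and 2 fell (median 0.67), where 77.1% of all genes passed (39.0% higher and 38.1% lower). The same shares apply to the plasminogen counts below. Anxa3 averaged 277 FPKM in cKO-labelled TAM and 357 in control TAM (log2 change -0.36), Anxa7 fell by 0.26 on the log2 scale, and Anxa5, which binds exposed phosphatidylserine, rose there (460.2 and 386 FPKM). Anxa8 stood at 10.6 FPKM in control TAM and 0.206 in resident macrophages. The plasminogen system had 8 tested genes, of which 1 rose and 3 fell with the cKO label, and 7 rose and 1 fell in the tumour. Among them Eno1, a glycolytic enzyme that also serves as a plasminogen receptor, had 448 FPKM in cKO-labelled TAM and 537 in control TAM (log2 change -0.26). Plaur, the urokinase receptor, stood at 279.5 and 278 FPKM (adjusted p = 0.922), and at 112 FPKM in resident macrophages.

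S100a4 binds the motor protein non-muscle myosin and is found in motile cells, among them fibroblasts and macrophages. It had 44.1, 51.8 and 49.0 FPKM in cKO-labelled TAM, against 55.2, 61.9 and 63.4 FPKM in control TAM. The groups did not overlap, although the gap between the nearest libraries, at 51.8 and 55.2 FPKM, was smaller than the spread within either group. The log2 change was -0.31 ± 0.06 (48.3 ± 3.91 against 60.2 ± 4.34 FPKM, adjusted p = 0.00135). Resident macrophages had 31.1, 27.6, 28.1 and 28.9 FPKM, and control TAM exceeded them by a log2 change of 1.03 ± 0.06 (adjusted p = 1.97e-10).

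S100a6, or calcyclin, binds annexins and the ubiquitin ligase adaptor CACYBP. It had 272, 312 and 292 FPKM in cKO-labelled TAM, against 292, 301 and 321 FPKM in control TAM, which overlapped. The log2 change was -0.06, with a 95% interval from -0.21 to 0.08 (adjusted p = 0.498). It was -0.01 without cKO-labelled replicate 1, -0.11 without cKO-labelled replicate 2 and -0.02 without control replicate 3. Resident macrophages had 120.5, 100.3, 97.5 and 114 FPKM, so that control TAM was higher by a log2 change of 1.49 ± 0.07 (305 ± 15.1 against 108 ± 10.999 FPKM, adjusted p = 4.55e-12). The log2 ratio of S100a4 to S100a6 was lower by 0.25 in cKO-labelled than in control TAM. Fibroblasts and epithelial cells also make both genes. Fibroblast markers summed to 130.0 to 134 FPKM in cKO-labelled TAM, 166 to 170.2 in control TAM and 38.5 to 42.2 in resident macrophages, and with the cKO label 3 of 7 tested rose and 2 fell. Epithelial markers summed to 313 to 325, 309.6 to 317 and 90.5 to 103 FPKM in the same order of groups, and most of the resident sum was Tff2, a mucosal peptide (0.285 FPKM in control TAM and 78.6 in resident macrophages). Of the 12 epithelial markers 4 rose and 1 fell with the label, and in the tumour 11 rose and 1, Tff2, fell. Over all genes tested 39.6% passed with the label and 77.1% in the tumour. The keratin Krt19 had 82.2 FPKM in control TAM and 1.76 in resident macrophages, Krt8 49.4 and 1.00 FPKM, and Krt18 93.2 and 3.85 FPKM. No fibroblast marker in the table was at 0 in any library, and the part of these cells in the S100a4 and S100a6 values was not tested.

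S100a13 helps release proteins that lack a signal peptide, such as IL-1 alpha and FGF1. It had 95.4, 105 and 102 FPKM in cKO-labelled TAM, against 86.7, 87.3 and 97.2 FPKM in control TAM. Resident macrophages had 98.4, 76.8, 80.3 and 78.0 FPKM. The groups overlapped in both comparisons. The log2 change was 0.15 (95% interval -0.01 to 0.31, adjusted p = 0.120) with the cKO label and 0.12 (-0.03 to 0.27, adjusted p = 0.129) in the tumour. These outcomes turned on the setting. Without resident replicate 1, S100a13 passed as higher in cKO-labelled than control TAM (log2 change 0.15, adjusted p = 0.0162) and in control TAM than resident macrophages (0.20, adjusted p = 0.00111). With that library kept it passed in the tumour after rescaling to a common total (0.33, adjusted p = 0.000173) and with array weights (0.16, adjusted p = 0.0343), and with the label when the TAM groups alone were fitted (adjusted p = 0.0260). Its cargo Il1a averaged 39.7 FPKM in cKO-labelled TAM and 47.3 in control TAM (adjusted p = 0.0166), and 2.24 in resident macrophages, whereas Il1b, which is also leaderless, rose with the label (314 and 254 FPKM).

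**Figure D4:**
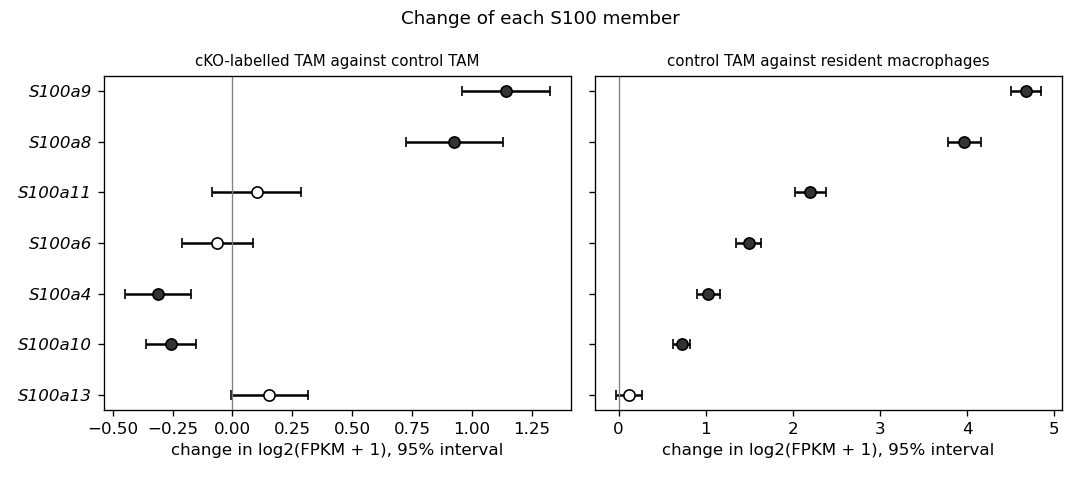
Change of each S100 member in log2(FPKM + 1) with its 95% interval, for cKO-labelled TAM against control TAM (left) and control TAM against resident macrophages (right); filled circles passed an adjusted p of 0.05, and the axes differ in scale. On the left S100a9 and S100a8 lie at 1.14 and 0.93, S100a4 and S100a10 at -0.31 and -0.26. On the right only S100a13 did not pass.

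The order of levels changed with the group. In cKO-labelled TAM it ran S100a10, S100a6, S100a11, S100a13, S100a9, then S100a8 and S100a4, whose ranges overlapped. In control TAM S100a4 came before S100a9 and S100a8, and that last pair overlapped. In resident macrophages S100a13 came before S100a11, S100a8 and S100a9 came last, and the ranges of S100a6 and S100a13, and of S100a11 and S100a4, overlapped. The 7 genes summed to 1039.8 to 1176 FPKM in cKO-labelled TAM, 1105 to 1148 in control TAM and 482 to 577 in resident macrophages. S100a8 and S100a9 made up 4.33% to 4.53% and 5.05% to 5.38% of that sum in cKO-labelled TAM, and 2.17% to 2.30% and 1.95% to 2.59% in control TAM. S100a10 made up 33.1% to 34.6% in cKO-labelled TAM, 39.0% to 40.5% in control TAM and 49.4% to 52.0% in resident macrophages.

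Receptors that bind released S100 proteins did not move as one. Of 12 tested genes of receptors and their adaptors, 5 rose and 3 fell with the cKO label. In the tumour 3 rose and 4 fell. Over all genes tested 39.6% passed with the label and 77.1% in the tumour, which applies to the counts below too. Tlr4, the receptor of S100A8 and S100A9, averaged 30.5 FPKM in cKO-labelled TAM and 35.2 in control TAM (log2 change -0.20, adjusted p = 0.0236), while its co-receptor Ly96 had 47.7 and 35.1 FPKM (log2 change 0.43) and its adaptor Myd88 133 and 103 FPKM (0.37). The TAM groups overlapped for Tlr4 and for Ly96, but not for Myd88. Bsg, which encodes basigin, a surface glycoprotein that binds S100A9, had 421 FPKM in cKO-labelled TAM, 520.1 in control TAM and 264 in resident macrophages, and its fall with the label had a log2 change of -0.30. Cd36 stood at 32.0 FPKM in control TAM and 376 in resident macrophages. Of the 7 subunits of the phagocyte NADPH oxidase, to which S100A8 and S100A9 bring arachidonic acid, 2 rose and 2 fell with the label. Cybb, its catalytic subunit, had 252 and 336 FPKM in cKO-labelled and control TAM (log2 change -0.41), and Cyba, the membrane partner, 1707 and 1539 FPKM (0.15). In control TAM 6 of the 7 exceeded resident macrophages and 0 were lower, where 77.1% of all genes tested passed. Of 8 intracellular partners other than annexins, 3 rose and 4 fell with the label. Pla2g4a, the phospholipase that S100A10 binds, averaged 38.3 FPKM in cKO-labelled TAM and 47.4 in control TAM (log2 change -0.30), and Myh9, the myosin heavy chain bound by S100A4, 12.5 and 10.9 FPKM (0.20, adjusted p = 0.0421).

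Genes that lie beside the S100 loci were read from the same fit. Of 10 other genes in the table within 250 kb of a member, 9 were tested. With the cKO label 1 rose, Snapin, a vesicle fusion protein (53.2 and 48.2 FPKM, log2 change 0.14), 0 fell and 8 did not pass. Of all genes tested, 39.6% passed in that comparison. In control TAM against resident macrophages 2 rose and 6 fell, with a median log2 change of -0.34, where the members' median was 1.49. Of all genes tested, 77.1% passed there (39.0% higher and 38.1% lower). The neighbouring family gene S100a1 starts 42 bp from S100a13 on the opposite strand, and the kit keeps no strand, so reads near their starts cannot be assigned with certainty. It averaged 154 ± 11.5, 146 ± 6.90 and 148 ± 12.7 FPKM in cKO-labelled TAM, control TAM and resident macrophages, and passed in neither comparison. S100a16 rose in the tumour, with 16.2 ± 1.73 FPKM in control TAM and 5.89 ± 0.620 in resident macrophages (log2 change 1.32), and had 17.3 ± 0.879 FPKM in cKO-labelled TAM.

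**Figure D5:**
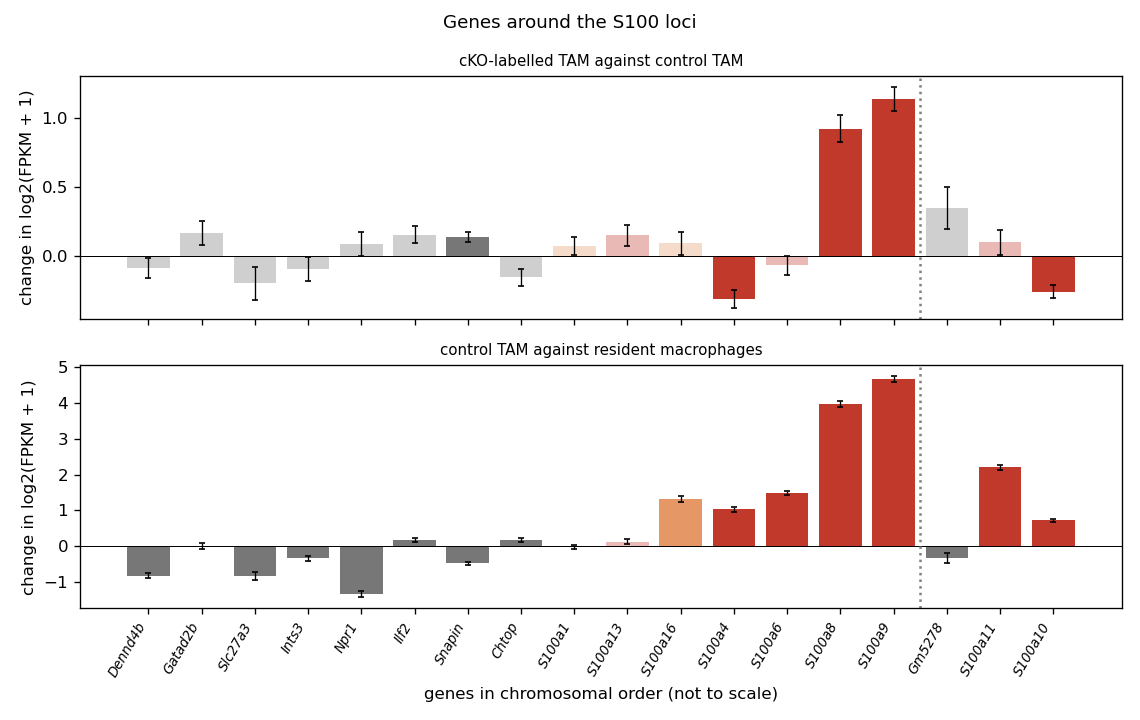
Change in log2(FPKM + 1) of the genes in the table within 250 kb of an S100 member, in chromosomal order and not to scale, for cKO-labelled TAM against control TAM (top) and control TAM against resident macrophages (bottom). Red bars are members, orange bars other S100 genes and grey bars other genes; whiskers are SE, pale bars did not pass the threshold, and the dotted line marks the gap of 2824766 bp. In the top panel S100a8 and S100a9 have the largest changes, and 8 of the 9 grey genes did not pass, where 39.6% of all genes tested passed.

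Genes with the most similar profile to each member were sought among 5052 genes with a mean of at least 10 FPKM, by Pearson correlation of log2(FPKM + 1) over 10 libraries. These values describe mainly the 3 group means, since the libraries fall into 3 tight groups. S100a8 was most like Siglecf, a sialic acid receptor known from eosinophils (r = 0.999), Il1r2, the interleukin-1 decoy receptor (0.999), and Osm, the cytokine oncostatin M (0.999). S100a9 was most like S100a8 itself (0.998), then Osm and Tspan13. Siglecf had 27.0 FPKM in cKO-labelled TAM, 15.3 in control TAM and 0.494 in resident macrophages, and Il1r2 had 59.3, 32.1 and 0.425 FPKM. S100a4 and S100a10 shared 2 of their 3 most similar genes, the cell cycle activator Cdc20 and Bsg, and Bsg had r = 0.994 with S100a4 and 0.989 with S100a10. S100a6 was most like Wfdc21 (0.998) and S100a11 most like Fxyd5, a regulator of the sodium pump (0.997). S100a13, which varied least between groups, reached 0.941 with Mea1.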

How the data were processed

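RNA of sorted macrophages was amplified with the SMART-Seq v4 kit and made into Nextera XT libraries, per the labels' protocols. The authors deposited FPKM values in 1 table with 1 column per library. STAR and edgeR are named, with the builds mm10 and GRCm38, per the submitters' processing notes, with no role given, and edgeR was not run here. How gene length, scaling and gene filter were set is not given in these sources. Columns were matched to samples by title.

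Limma 3.58.1 (R 4.3.3) was fitted to log2(FPKM + 1) of all 10 libraries, with 3 group means, 7 residual degrees of freedom and a variance trend, on genes with at least 1 FPKM in at least 3 libraries, and p-values were adjusted by Benjamini-Hochberg over all 11127 genes. The fit was tested on simulated data. Reads were recovered from FPKM with the longest GENCODE M21 transcript as length. Between 85.8% and 87.1% of values from 1 to 200 reads came out whole within 0.05, and the search was changed after it had failed in cKO-labelled TAM replicate 3. Libraries of a group had median squared differences of 1.64 to 2.16 times counting noise and shared no identical value above 0. Each was counted as 1 replicate. Those values show that no column is a copy of another in its group. Whether libraries of a group came from separate mice, or from pooled or split RNA, was not tested. The members and gene lists were chosen with earlier results of these data known. Named beside the members are up to 4 genes per list that passed, with a mean of at least 10 FPKM in the higher group and the largest changes, and the 3 most similar profiles per member. The text names a part of these, and Tlr4, Anxa5, Cxcr2, Ngp, Camp, Mpo, Adgre1, Amy2a5 and Cd3g were added after their values were seen. Alternatives tried were a pseudocount of 0.1 or 0.5, no filter, a minimum of 5 FPKM, 3 other scalings, only the 2 groups compared, no trend, array weights, a replicate block and leaving out each library.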

Additional observations from a re-analysis of the deposited data

Results flagged for a closer look

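A resident library stood far from the other 3 of its group in 9 of 76 genes examined, by a gap test that flags about 1 group in 20 by chance. Among the members these were S100a13, at 98.4 FPKM in replicate 1 against 76.8 to 80.3 in the others, and S100a9, at 0.128 FPKM in replicate 4 against 0 in the others, a difference of 1 read. Replicate 1 was also high for Anxa2 (224.7 FPKM), Anxa6 (140.2), Eno1 (183) and Cd68 (960.4). Ly96 was high in replicate 4 (68.1 FPKM) and Cdc20 low in replicate 2 (6.28). Among the resident libraries Cxcr2 was above 0 only in replicate 3 (0.0543 FPKM). With the other resident values at 0, any read of S100a9 or Cxcr2 would be flagged, so the chance rate does not apply to them.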

How the results depend on the processing

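Under 21 alternatives the counts of members that passed were 4 to 5 with the cKO label and 6 to 7 in the tumour, and no member reversed. S100a4, S100a8, S100a9 and S100a10 kept their direction and passed in every alternative of both comparisons, as did S100a6 and S100a11 in the tumour comparison. The genes that passed numbered 3445 to 4763 (4410 as reported) and 6158 to 9416 (8577 as reported). S100a13 alone crossed the threshold. In the tumour comparison it passed when libraries were rescaled to a common total (log2 change 0.33, against a shift of 0.18 in all genes) and with array weights (0.16), and with the cKO label when only those 2 groups were fitted (0.15, adjusted p = 0.0260). For that comparison without each library in turn its log2 change ran from 0.12 to 0.21. A pseudocount of 0.1 raised the tumour change of S100a9 to 7.69 on the log2 scale and that of S100a8 to 5.07, since the resident values lie near 0. The replicate number as a block left 4342 and 8396 genes called and the same counts of 4 and 6 members. Same-numbered libraries did not deviate together (correlations of -0.06 to 0.09), so the numbers were not taken as pairs. Depth limits only S100a8 and S100a9 in resident macrophages, at 0 to 6 reads a library.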

Other observations

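The members varied together between the libraries of cKO-labelled TAM and of resident macrophages, but not of control TAM. Among the cKO-labelled libraries, replicate 2 had the highest and replicate 1 the lowest value for 7 of 7 members, where replicate 2 was highest for 35.5% and replicate 1 lowest for 40.4% of all genes tested. Of the family genes outside the members, S100a1 ran in the same order (141, 163 and 159 FPKM in replicates 1 to 3). S100a16 did not, being highest in replicate 1 and lowest in replicate 2 (18.4, 16.8 and 16.9 FPKM). Among resident libraries, replicate 1 was highest for 6 of 7 members and for 29.3% of all genes. The exception, S100a9, had 1 read in replicate 4 and 0 in the others, so its order carries no information. S100a8, counted among the 6, had 6 reads in replicate 1 and 6 in replicate 4. Its top place there reflects library depth alone. Among control libraries the highest value fell in replicates 1, 2 and 3 for 1, 2 and 4 members, and the lowest for 4, 2 and 1.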
